A study of Mus musculus with 4 samples.

Results

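The genes described here are 10 reported targets of the microRNAs miR-143 and miR-145 whose products act on the actin cytoskeleton: Ssh2, Srgap1, Srgap2, Cfl1, Phactr4, Add3, Camk2d, Fscn1, Arf6 and Rtkn. They were taken by name, and all 10 were present among the 19296 genes measured, each through 1 probe set. The tissue was the ureter of male mice on a mixed 129Sv/C57BL6 strain background, with 1 array for each mouse. The miR-143/145-/- group held 2 knockout mice, 2.5 months old, whose kidneys were hydronephrotic, that is, swollen by retained urine. The miR-143/145+/+ group held 2 wild type mice, 4.5 months old, with normal kidneys. Genotype, age and kidney state therefore cannot be told apart, and every difference below is between these groups of mice.

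MicroRNAs pair through a short seed with sites in messenger RNAs, which lowers translation or shortens the life of the message. An array reads only the amount of message, so an effect on translation alone would not be seen here. miR-143 and miR-145 are transcribed together and are abundant in smooth muscle, whose contraction depends on an actin network that is constantly cut, capped, bundled and rebuilt. In that network cofilin severs filaments, slingshot phosphatases switch cofilin on, adducin caps filament ends, fascin bundles filaments, and small GTPases with their regulators decide where filaments form.

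All values are log2 expression values as the authors deposited them, so that a difference of 1 is a doubling. Both knockout mice read below the background level of log2 6.58 for the deleted microRNA genes: Mir145a measured 4.60 and 5.02 in knockout against 8.28 and 8.42 in wild type ureter, and Mir143 measured 6.48 and 6.53 in knockout against 7.64 and 7.85 in wild type ureter (limma adjusted p = 0.00193 and 0.0148). The background level is the 95th percentile of olfactory receptor genes. Over all genes, 367 were higher and 92 lower in knockout at an adjusted p of 0.05. With arrays centred on their medians the counts were 309 higher and 317 lower, so the balance of directions depended on the scaling. Without wild type replicate 1 or wild type replicate 2 limma called 0 genes, with 4253 and 3079 at p under 0.05 before adjustment. The markers of the ureter's main layers were well above background on every array, with Myh11, the smooth muscle myosin, at 12.84 and 12.71 in knockout and 12.47 and 12.40 in wild type, and Upk2, a uroplakin of the urothelium, at 12.43 and 12.86 in knockout and 11.84 and 12.11 in wild type.

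The bases in front of 3 of these genes are shown because their annotated windows end exactly at the start of the gene and because the genes differ in role: Fscn1 had the largest difference of the 10 genes, Cfl1 encodes cofilin itself, and Phactr4 is the other target with a TATA-type match. A window of Add3 also ended at the start of its gene and is not printed. Each printed window is 250 bases 5′ to 3′ on the gene's strand, from RefSeq on GRCm38.p6. Capitals mark matches to TATAAA or GGGCGG on either strand.
Fscn1, chr5:142960105-142960354, plus strand: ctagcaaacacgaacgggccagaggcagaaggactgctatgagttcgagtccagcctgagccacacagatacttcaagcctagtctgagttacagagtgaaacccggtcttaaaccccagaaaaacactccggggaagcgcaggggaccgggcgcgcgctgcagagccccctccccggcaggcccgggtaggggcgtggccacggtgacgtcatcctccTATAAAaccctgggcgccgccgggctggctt
Phactr4, chr4:132422447-132422696, minus strand: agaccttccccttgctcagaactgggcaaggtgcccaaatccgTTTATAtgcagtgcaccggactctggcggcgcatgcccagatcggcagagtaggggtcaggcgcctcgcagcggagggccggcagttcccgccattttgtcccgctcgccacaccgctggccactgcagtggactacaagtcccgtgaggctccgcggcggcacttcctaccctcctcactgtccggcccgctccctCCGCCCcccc
Cfl1, chr19:5490205-5490454, plus strand: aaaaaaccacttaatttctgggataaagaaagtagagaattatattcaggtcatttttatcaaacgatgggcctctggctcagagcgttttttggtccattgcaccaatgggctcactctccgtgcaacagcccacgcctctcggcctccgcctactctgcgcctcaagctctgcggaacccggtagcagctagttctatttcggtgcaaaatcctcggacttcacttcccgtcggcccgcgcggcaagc

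The Fscn1 window held TATAAA beginning 31 bases before the start, and the Phactr4 window held it on the opposite strand 207 bases before the start. The Cfl1 window held no match to either motif. The sequence table gave 14 such windows for 9 of the 10 genes. Of these windows 10 held GGGCGG, against 32.7% of all 32851 windows, and 2 held TATAAA, against 12.4%. The share of G and C was 43.6% to 76.4% in the 14 windows, with a median of 52.4% over all windows. Only the Cfl1 window, at 52.0%, and Add3 windows at 46.0% and 43.6% lay below that median. GGGCGG holds only G and C, and its count was not tested against this share. The CArG box was matched in 0 of the 14 windows and in 1.47% of all windows, and CATTCC in 1 of 14 and in 12.6% of all. The searches ran over both strands, and matches of different motifs did not overlap in the windows printed. These are descriptions of letters in short windows, several of which belong to the same gene.

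None of the 10 targets passed the test over all genes, but Fscn1 and Srgap2 came nearest, both higher in knockout ureter. Limma called 0 of 10 at an adjusted p of 0.05, beside 2.38% of all genes called in either direction. At an adjusted p of 0.10 the call took in 2, beside 11.9% of all genes. Without adjustment, 2 targets had higher means and 0 had lower ones at p under 0.05, beside 12.7% of all genes higher and 13.8% lower. Both knockout mice lay above both wild type mice for 7 targets, beside 28.0% of all genes, and below them for 0, beside 32.0%. Among genes above background the share with both knockout mice higher was 35.1%. All 10 targets were above background on all 4 arrays. Their median difference was 0.22, that of all genes -0.02 and that of all genes above background 0.03. The differences of the 10 ran from -0.06 to 0.64, and the 95% intervals reached 0.27 to 0.42 to either side.

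**Figure D1:**
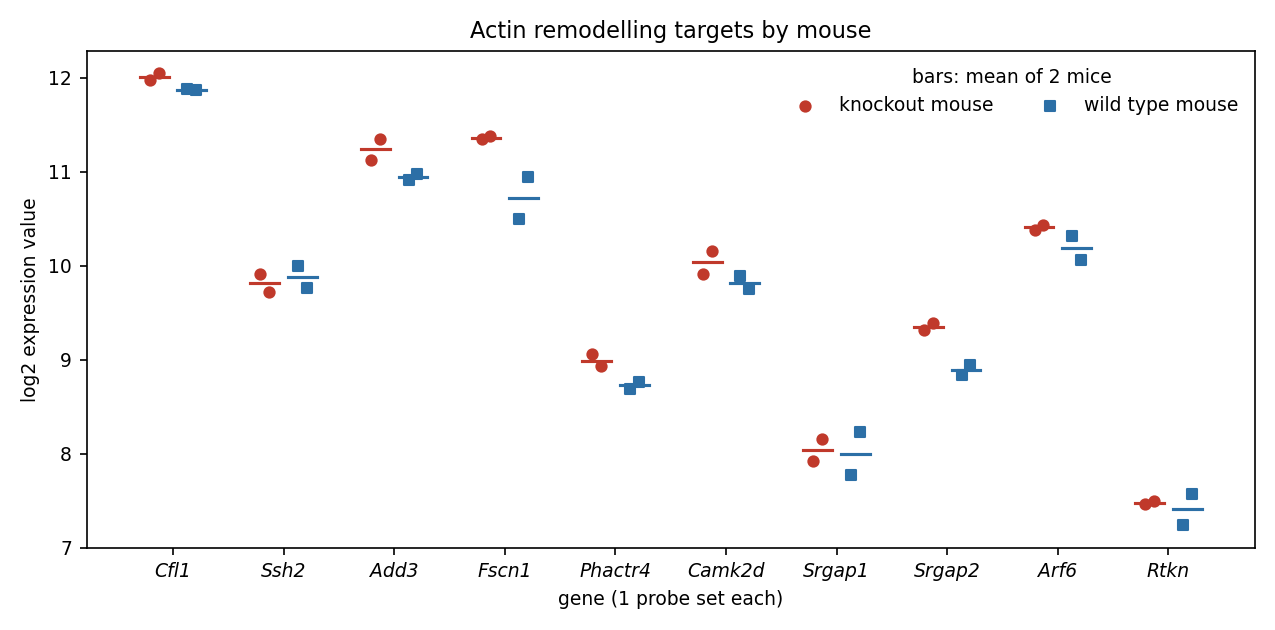
Log2 expression value (vertical axis) of each of the 10 target genes (horizontal axis) in every mouse, with knockout mice as red circles left of wild type mice as blue squares, and short bars at the mean of 2 mice. Fscn1 and Srgap2 show the widest separation, while the genotypes overlap for Ssh2, Srgap1 and Rtkn; heights of different genes cannot be set against each other.

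Fscn1 encodes fascin, which packs actin filaments into the tight parallel bundles of filopodia. It measured 11.35 and 11.38 in knockout ureter, against 10.50 and 10.94 in wild type ureter. Both knockout values lay above both wild type values, by at least 0.41, and almost all of the spread was between the wild type mice, which were 0.45 apart. The difference was 0.64 (SE 0.16, 95% interval 0.26 to 1.03), a 1.56-fold higher mean in knockout, and did not pass (limma adjusted p = 0.0767). Its size rested on the lower wild type mouse: the difference was 0.42 without wild type replicate 1 and 0.87 without wild type replicate 2. It ranked 712th of 19296 genes by signed difference. Fscn2 and Fscn3, the other fascins, known mainly from photoreceptors and testis, differed by -0.45 and -0.44. Fscn3 was below background on all arrays, and neither passed (adjusted p = 0.219 and 0.109).

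Srgap2 encodes a GTPase-activating protein of the Slit-Robo pathway that bends membranes and switches off Rac. It measured 9.32 and 9.39 in knockout ureter, against 8.84 and 8.94 in wild type ureter. The genotypes were 0.38 apart at their nearest, while the mice of a genotype differed by 0.07 in knockout and 0.10 in wild type. The difference was 0.46 (SE 0.12, 95% interval 0.19 to 0.74), or 1.38-fold, with a limma adjusted p of 0.0759. It stayed between 0.41 and 0.51 with any mouse left out. Its close relative Srgap1, which acts on Cdc42, measured 7.93 and 8.16 in knockout ureter, against 7.78 and 8.23 in wild type ureter. Here the wild type mice lay on either side of the knockout mice. The difference was 0.04 (95% interval -0.38 to 0.45, adjusted p = 0.916) and turned negative with a further quantile normalization, with centred arrays, and without knockout replicate 2 or wild type replicate 1. The third member of the family, Srgap3, not among the 10 targets, measured 7.73 and 7.78 in knockout ureter, against 7.09 and 7.28 in wild type ureter, a difference of 0.57 (adjusted p = 0.0611). Whether the 3 relatives differ from each other in response was not tested.

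Cfl1 encodes cofilin, which cuts and depolymerises actin filaments and is silenced by phosphorylation. It measured 11.97 and 12.05 in knockout ureter, against 11.88 and 11.87 in wild type ureter. The knockout mice were above the wild type mice by only 0.10 at the nearest. The difference of 0.14 (SE 0.11, adjusted p = 0.471) had a 95% interval of -0.13 to 0.40, and the upper bound is a 1.32-fold higher level. With centred arrays the difference was 0.06. Ssh2 encodes the slingshot phosphatase that removes the silencing phosphate from cofilin. It measured 9.91 and 9.72 in knockout ureter, against 9.996 and 9.76 in wild type ureter. The genotypes overlapped, and Ssh2 was the only target with a lower mean in knockout in the comparison of all 4 mice, by a difference of -0.06 (95% interval -0.38 to 0.27, adjusted p = 0.816); without knockout replicate 2 or wild type replicate 1 the sign turned. Its relatives Ssh1 and Ssh3 differed by -0.08 and 0.37 and did not pass (adjusted p = 0.730 and 0.183). Of the other actin-cutting proteins of this family, Cfl2, the muscle cofilin, differed by -0.21 and Dstn, destrin, by 0.26 (adjusted p = 0.343 and 0.213).

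Add3 encodes gamma-adducin, which caps the fast-growing ends of filaments and ties them to spectrin under the membrane. It measured 11.12 and 11.35 in knockout ureter, against 10.91 and 10.98 in wild type ureter. The genotypes did not overlap, and the difference of 0.29 (SE 0.13, 95% interval -0.01 to 0.59) did not pass (adjusted p = 0.202). It was 0.40 without knockout replicate 1 and 0.18 without knockout replicate 2. Add1, the widely expressed alpha form, differed by a similar 0.30 (adjusted p = 0.167), while Add2, an erythroid and neuronal form, was below background on all arrays.

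Phactr4 encodes a protein that binds monomeric actin and protein phosphatase 1, through which it promotes the activation of cofilin. It measured 9.06 and 8.93 in knockout ureter, against 8.69 and 8.77 in wild type ureter. Both knockout values were higher, by at least 0.17, and the difference was 0.27 (SE 0.12, 95% interval -0.01 to 0.55, adjusted p = 0.202). With a further quantile normalization the difference was 0.16. Phactr1 and Phactr2 both differed by 0.37 (adjusted p = 0.118 and 0.103), and Phactr3 by -0.45 (adjusted p = 0.0975), so 3 of the 4 family means were higher in knockout and none passed.

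Camk2d encodes the delta form of calcium/calmodulin-dependent kinase II, a form found in smooth muscle that phosphorylates proteins of contraction and of the cytoskeleton. It measured 9.91 and 10.16 in knockout ureter, against 9.89 and 9.75 in wild type ureter. The lower knockout mouse lay 0.03 above the higher wild type mouse, so the separation of the genotypes was smaller than the gaps between mice of the same genotype, 0.25 in knockout and 0.14 in wild type. The difference was 0.22 (95% interval -0.10 to 0.53, adjusted p = 0.338), and it was 0.34 without knockout replicate 1, 0.09 without knockout replicate 2, 0.13 with a further quantile normalization and 0.14 with centred arrays. Camk2g, the other form common outside the brain, differed by 0.13, Camk2b by -0.34 and Camk2a by -0.10, with overlapping genotypes in each case.

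Arf6 encodes a small GTPase that recycles membrane and remodels cortical actin. It measured 10.38 and 10.43 in knockout ureter, against 10.32 and 10.06 in wild type ureter. The knockout mice were 0.06 above the nearest wild type mouse, and the difference of 0.22 (95% interval -0.09 to 0.53, adjusted p = 0.327) was 0.35 without wild type replicate 1, 0.09 without wild type replicate 2 and 0.14 with either of the other scalings. Its relatives Arf1, Arf3, Arf4 and Arf5, which serve mainly the Golgi, differed by 0.21, 0.07, 0.06 and 0.12 with overlapping genotypes. Rtkn encodes rhotekin, a scaffold protein. It measured 7.46 and 7.50 in knockout ureter, against 7.24 and 7.58 in wild type ureter. The wild type mice lay outside the knockout mice on both sides, and the difference was 0.07 (95% interval -0.27 to 0.41, adjusted p = 0.774), turning to -0.01 with centred arrays and to -0.09 without wild type replicate 1. Rtkn2 was below background on all arrays.

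**Figure D2:**
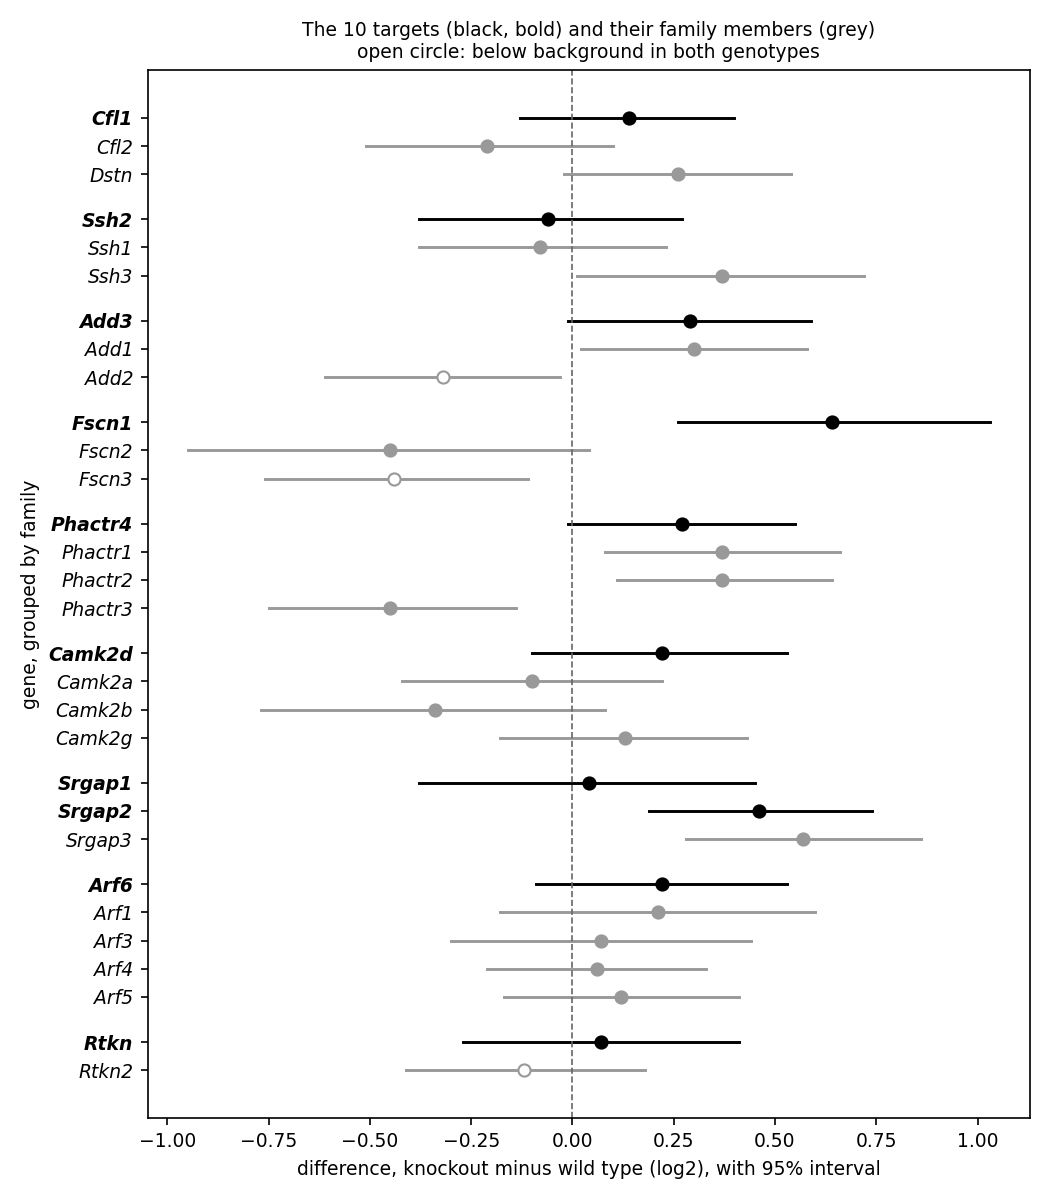
Difference in log2 expression value, knockout minus wild type (horizontal axis), with its 95% interval from limma, for the 10 targets in black and their family members in grey (vertical axis). The intervals of Fscn1 and Srgap2 are the only ones among the 10 targets that lie wholly above 0, and open circles mark family members below background in both genotypes.

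Among the 20 family members outside the set, 0 passed the test, and without adjustment 5 were higher and 3 lower (limma p under 0.05), beside 2.38% of all genes called in either direction and, without adjustment, 12.7% higher and 13.8% lower. Their median difference was 0.06, against 0.22 for the 10 targets, -0.02 for all genes and 0.03 for all genes above background. All 10 targets were above background, but only 17 of the 20 relatives were. The dim relatives Add2, Fscn3 and Rtkn2 all had lower means in knockout, by -0.32, -0.44 and -0.12. Means were higher in knockout for 11 of the 20 relatives, for 9 of the 10 targets and for 47.1% of all genes, dim genes included. The signs of Srgap1 and Rtkn turned with centred arrays, and that of Srgap1 also with a further quantile normalization. The difference between the sets was not tested.

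**Figure D3:**
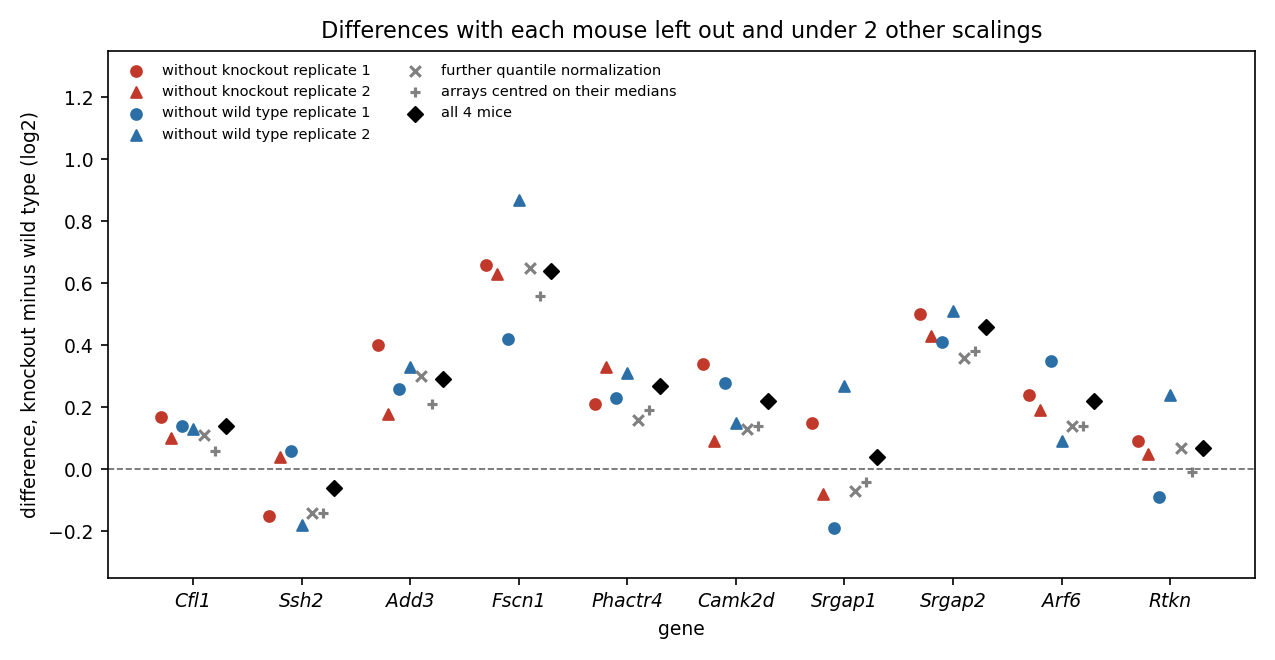
Difference in log2 expression value, knockout minus wild type (vertical axis), for each of the 10 targets (horizontal axis) with a knockout mouse left out (red), with a wild type mouse left out (blue), under other scalings (grey) and in the comparison of all 4 mice (black diamond). Fscn1 and Srgap2 stay at or above 0.36 throughout, while Ssh2, Srgap1 and Rtkn cross 0.

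At an adjusted p of 0.05 the share of the wider actin machinery called higher was close to that of all genes. Without adjustment its share higher was larger than that of all genes and of genes above background, a difference that was not tested. In 8 lists of actin regulators, 167 genes other than the 10 targets were tested, of which 4 rose, 0 fell and 163 did not pass, beside 1.90% of all genes called higher and 0.477% lower. All 4 calls were lost without either wild type mouse, where limma passed 0 genes of any kind (adjusted p between 0.183 and 0.229). The median difference of the 167 genes was 0.09, and without adjustment 40 were higher and 11 lower at p under 0.05, beside 12.7% of all genes higher and 13.8% lower. Of the 167 genes 160 were above background, and among all genes above background the unadjusted shares were 16.5% higher and 13.3% lower. Without knockout replicate 1, 20 of them were called higher and 1 lower, where 5.78% of all genes were called higher.

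Tmod1 and Epb41l3 gave the largest rises of the lists, both in that of adducin, spectrin and tropomodulin. Tmod1, tropomodulin 1, caps the slow-growing ends of filaments, opposite to the ends that adducin caps. It measured 10.30 and 10.29 in knockout ureter, against 9.15 and 8.98 in wild type ureter, and rose 2.35-fold (limma adjusted p = 0.0148). A dimmer probe set of Tmod1 differed by 0.07, and the mean of both sets gave 0.65, so the rise rested on the brighter one. Epb41l3, a linker of the membrane skeleton that joins membrane proteins to spectrin and actin, measured 8.12 and 8.52 in knockout ureter, against 6.92 and 7.23 in wild type ureter, and rose 2.37-fold (adjusted p = 0.0319). In this list 2 of 16 tested genes rose, 0 fell and the median was 0.04.

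In the cofilin cycle, 1 of 17 other genes rose and 0 fell, with a median of 0.18. This gene, Cap2, encodes a cyclase-associated protein that works with cofilin to recycle actin monomers and is prominent in striated muscle. It measured 11.52 and 11.47 in knockout ureter, against 10.58 and 10.63 in wild type ureter, a rise of 0.89 (SE 0.11, adjusted p = 0.0270). Among 12 other genes of the Phactr and protein phosphatase 1 list, Ppp1r14a rose and 0 fell, with a median of 0.11. This gene encodes CPI-17, a smooth muscle inhibitor of myosin phosphatase. It measured 10.23 and 10.47 in knockout ureter, against 9.60 and 9.51 in wild type ureter, a rise of 0.80 (SE 0.13, adjusted p = 0.0394) whose call also ended without knockout replicate 2 (adjusted p = 0.0540) and after a further quantile normalization (0.0614).

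The other 5 lists held 0 genes past the limma threshold, although each had genes at an unadjusted p under 0.05, a level that 12.7% of all genes reached with a higher mean and 13.8% with a lower one. No list was tested against these shares. Around ARF6, 9 of 36 genes were higher and 1 lower at that level, with Pld1, a phospholipase D that ARF6 activates, at a difference of 0.59 (adjusted p = 0.0530) and Psd3, an exchange factor for ARF6, at 0.59 (0.0565). Of 44 genes for nucleation, capping and monomer binding, 9 were higher and 1 lower, and the smallest p-values were those of Svil, supervillin, at 0.63 (0.0530) and Enah, a promoter of filament elongation, at 0.56 (0.0645). Of 20 bundling and crosslinking genes besides Fscn1, 5 were higher and 2 lower, with Pls1, a plastin of epithelial microvilli, at 0.71 (0.0913) and Lima1 at 0.54 (0.0863). In the srGAP, Slit and Robo list 3 of 11 were higher and 1 lower, with the receptor gene Robo2 at 0.44 (0.102) beside Srgap3. In the list of CaM kinase II and calmodulin 2 of 11 were higher and 1 lower, with Camk1d at 0.59 (0.0581) and Camk2n2, an inhibitor of CaM kinase II, at -0.44 (0.138). The medians of these 5 lists ran from -0.03 for CaM kinase II and calmodulin to 0.19 for bundling and crosslinking. The genes named from these lists were picked as those of smallest p in these same data. Without knockout replicate 1 the differences of Pls1, Camk1d, Pld1, Psd3, Svil and Enah ran from 0.62 to 1.02. They ran from 0.51 to 0.74 without wild type replicate 1 and from 0.51 to 0.75 without wild type replicate 2. Without knockout replicate 2 the differences of the same genes ran from 0.41 to 0.64. Camk2n2 differed by -0.65 without knockout replicate 1 and by -0.24 without knockout replicate 2. It differed by -0.47 without wild type replicate 1 and by -0.41 without wild type replicate 2. Camk1d, Pld1, Psd3 and Svil passed with only genes above background tested (limma adjusted p 0.0453 to 0.0493). These and Srgap3 and Enah passed with robust eBayes (0.0382 to 0.0497), and these 6 with Pls1 and Lima1 under the replicate block (0.0252 to 0.0366). The counts of all genes called higher were also larger there, at 535, 655 and 1164, against 367 in the main fit. Pld1 and Svil passed with an intensity trend as well (0.0490 and 0.0454), while Robo2 passed under none of these settings.

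**Figure D4:**
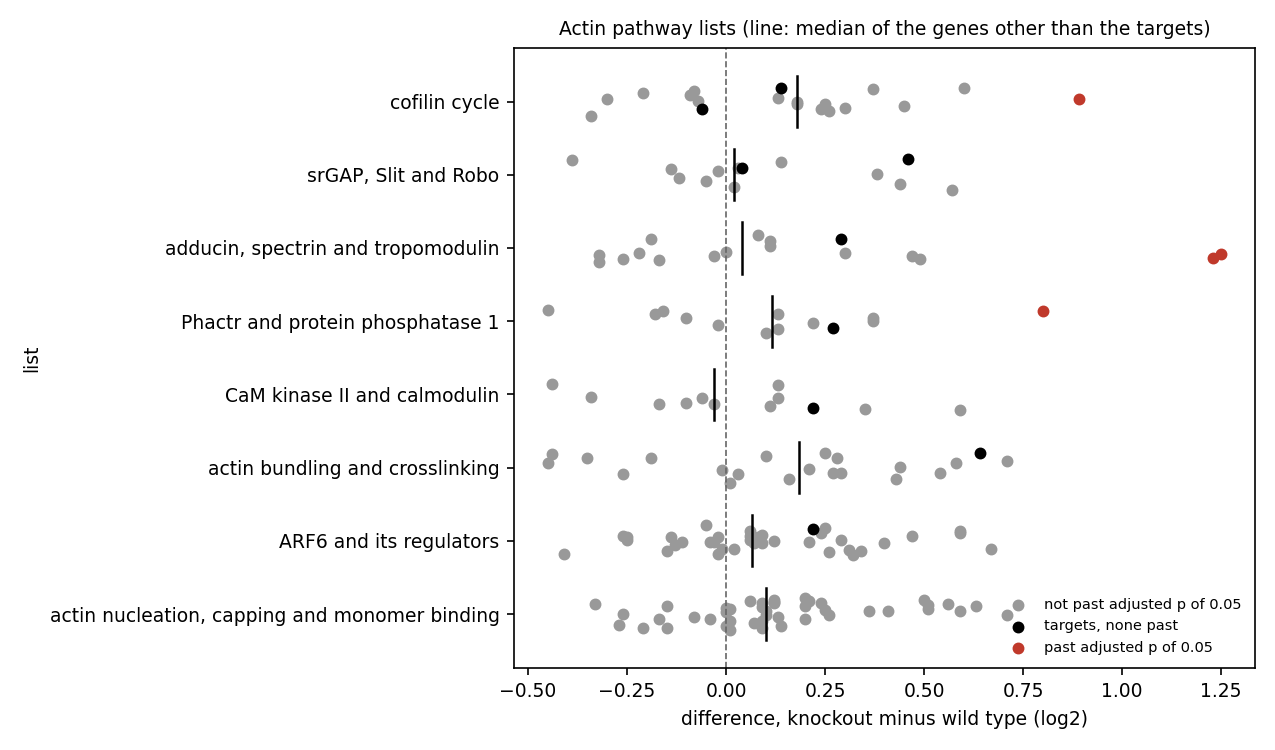
Difference in log2 expression value, knockout minus wild type (horizontal axis), of every tested gene in the 8 actin lists (vertical axis, with points spread for visibility). Red points passed an adjusted p of 0.05, black points are the 9 targets that these lists hold, of which 0 passed, grey points are the other genes, and the vertical line in each list is the median of the genes other than the targets.

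Markers of the cell types in the ureter also differed between these mice. The mean level of 16 urothelial markers was 11.90 and 12.28 in knockout and 11.30 and 11.60 in wild type ureter, and all 16 had a higher mean in knockout. That of 9 markers of fibroblasts and mesenchyme was 10.90 and 11.09 in knockout and 10.32 and 10.42 in wild type, with 9 of 9 higher. That of 12 smooth muscle markers was 11.61 and 11.45 in knockout and 11.37 and 11.28 in wild type, with 10 of 12 higher. Adipocyte markers were lower in knockout, at 12.49 and 12.03, against 12.76 and 12.68 in wild type, with 10 of 11 lower. Kidney tubule markers overlapped, at 8.81 and 6.86 in knockout and 6.82 and 7.59 in wild type, with knockout replicate 1 highest. Of 13 such markers 11 had a higher mean in knockout, with a median difference of 0.74. The urothelial markers and those of fibroblasts and mesenchyme gave the same order of the 4 mice, with knockout replicate 2 highest and wild type replicate 1 lowest. Fscn1, Srgap2 and Add3 had this order too, and how many of all genes share it was not counted. The order of the knockout mice rested on gaps of 0.02 for Fscn1, 0.07 for Srgap2 and 0.23 for Add3. Both knockout mice lay above both wild type mice for 28.0% of all genes and for 35.1% of those above background. For the smooth muscle, kidney tubule and skeletal muscle lists, 0 of the 10 targets had the list's order. In the lists for adipocytes, endothelium, macrophages, lymphocytes and nerve, both knockout mice lay below both wild type mice. Because 0 of the 10 targets lay that way, none could match those lists, and no contrast can be drawn from them. In such bulk samples a change in the number of cells of a type and a change in RNA per cell cannot be told apart, and the part of cell makeup in the differences of the 10 targets was not tested.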

How the data were processed

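Per the labels' protocols, 500 ng of total RNA from each mouse went onto an Affymetrix whole-transcript array. The deposited table gives a log2 expression value per probe set and array. The submitters' processing notes name R 2.15.0, RMA and limma 3.12.1. RMA makes array distributions more alike, which can shrink a change that most genes share. The deposited arrays still differed by genotype, with medians of 7.89 and 7.89 in knockout and 7.81 and 7.84 in wild type. Their lower quartiles were 6.26 and 6.27 in knockout and 6.36 and 6.45 in wild type. Of 23309 probe sets, 20728 had 1 symbol in the platform annotation, and the brightest per gene by the mean of the 4 arrays gave 19296 genes. Dim genes were kept. The genotypes were compared with lmFit and eBayes of limma 3.58.1 (R 4.3.3; two-sided, neither trend nor robust), p-values were adjusted over all genes by Benjamini-Hochberg, and the threshold was 0.05. Every p, SE and 95% interval is from this fit, unless another setting is named beside it. The code was run on values simulated from the fit's own variance model with known changes. That run checks the code, not whether the model suits these 4 mice. The labels call the mice biological replicates. For arrays there is no counting depth, and the number of mice limits the precision. Members and lists were chosen with earlier results of these data known. Named genes are the 10 targets, their family members, the deleted genes and, per actin list, up to 4 genes past the threshold or else the 2 of smallest p, above background. Myh11 and Upk2 were added to check the tissue. Of 189 listed genes, 176 were present, 9 targets included. A further list is not reported here. The 10 marker lists were summarised as the mean per array. Those for endothelium, macrophages, lymphocytes, nerve and skeletal muscle had median differences of -0.14, -0.16, -0.41, -0.23 and -0.07. The mature microRNA sequences are not shown here. Alternatives were other scalings, filters, probe set rules, variance priors, array weights, a replicate block, another threshold and leaving out each mouse.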

Additional observations from a re-analysis of the deposited data

How the results depend on the processing

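The 10 targets gave 0 calls under every alternative except the replicate block, where 1 passed (Fscn1, adjusted p = 0.0322), and a threshold of 0.10, where 2 passed; with any mouse left out the count was 0. The labels' replicate numbers do not state a pairing, and the deviations of same-numbered mice correlated at -0.03 across genes, so the block pairs mice by number only. With it 1164 genes were higher and 758 lower, and 20 genes of the actin lists were higher. The counts of all genes higher and lower were 155 and 49 with a further quantile normalization, 655 and 247 with robust eBayes, and 1317 and 982 at a threshold of 0.10. Those lower were 317 with centred arrays, 147 with only genes above background and 57 with all probe sets. With only genes above background, 535 of 14227 were higher. With a mouse left out, the counts ran from 0 to 1115 higher and from 0 to 629 lower. Of the actin lists, 8 genes were higher with only genes above background, 10 with robust eBayes and 22, with 2 lower, at a threshold of 0.10; with a mouse left out, 0 to 20 were higher and 0 to 1 lower. Signs turned only for targets near 0. Srgap1 differed by -0.07 with a further quantile normalization and -0.04 with centred arrays, and between -0.19 and 0.27 with a mouse left out. Rtkn differed by -0.01 with centred arrays, and between -0.09 and 0.24 with a mouse left out. Ssh2 lay between -0.18 and 0.06 with a mouse left out. In leave-one-out fits the lone mouse of a genotype is assumed to vary like the other genotype. Centring subtracts 1 number per array, so it moved the differences of all genes by the same amount, downward here. The cause of the other changes was not tested. Fewer genes tested (14227) accompanied the filter on dim genes.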
